A study of Mus musculus with 35 samples.

Results

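The machinery that digests proteins in the lysosome was followed across single mouse peritoneal macrophages, by the transcripts of 46 genes: 18 cathepsins, 4 lysosome-associated membrane proteins (LAMP) and 24 genes of the vacuolar H+-ATPase (V-ATPase). Members were chosen by symbol alone, as every gene whose name is Cts plus a letter, Lamp1 to Lamp5, a V0 or V1 subunit of V-ATPase (Atp6v0 and Atp6v1) or an accessory subunit (Atp6ap1, Atp6ap2). All 46 symbols were found in each of the 3 deposited tables, among the 32285 rows of each of the 2 matrices and the 35624 rows of the AZD3965 table. Transcripts of 35 members were counted in at least 1 cell and those of 21 in all 35 cells. The 11 members at 0 in every cell were the cathepsins Ctsg, Ctsj, Ctsm, Ctsq, Ctsr and Ctsw, Lamp5, and the V-ATPase genes Atp6v0a4, Atp6v1c2, Atp6v1e2 and Atp6v1g3. A count of 0 over a whole table allows a level of up to 0.501 CPM in the lactate experiment, 0.536 CPM in the technique comparison and 2.30 CPM in the AZD3965 experiment.

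Cathepsins are proteases of the endosome and lysosome that are made as inactive precursors and become active at acid pH. Most are cysteine proteases, whereas cathepsins D and E are aspartic proteases and cathepsins A and G are serine proteases. V-ATPase acidifies the compartment: its V1 sector hydrolyses ATP in the cytosol and turns a ring in the membrane-bound V0 sector, which carries the protons across. LAMP1 and LAMP2 are heavily glycosylated proteins that coat the inner side of the lysosomal membrane. Macrophages are rich in lysosomes because they break down what they engulf.

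The cells were primary peritoneal macrophages of male C57BL/6 mice aged 6 months, kept in culture for 24 h and washed free of non-adherent cells, and each cell gave 1 library. The lactate experiment held 8 cells exposed to 10 mM lactate over 72 h and 8 control cells. In the AZD3965 experiment, 5 cells had received 10 mM lactate together with 300 nM AZD3965, an inhibitor of the lactate transporter MCT1, and 5 had received 10 mM lactate without it. All of these cells were profiled by scMeT-seq, in which a nanocapillary draws a little cytoplasm out of the living cell for the metabolome before the cell is taken up in lysis buffer for RNA sequencing. For a comparison of techniques, 4 lactate-treated cells went through scMeT-seq, while 3 lactate-treated and 2 control cells were sequenced as whole cells by SMART-seq2 with no metabolite sampling. The labels name no animal or culture, so a group of cells is a single sample here: differences between groups carry no p-value and have no replicate check. The level of a gene in a group is its count, added up across cells, per 1000000 counts of that group (CPM), and the log2 ratio of 2 groups is given with a 95% interval that covers counting error only. PCR copies are counted separately here, which makes these intervals too narrow. Past 2-fold means a log2 ratio of at least 1 or at most -1 in a gene with 10 or more counts over both groups.

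Cathepsin, LAMP and V-ATPase genes are known in mammals as targets of the transcription factor TFEB, which binds E-box letters of the kind CACGTG. Start sites of 36 of the 46 members were found among the RefSeq promoters (GRCm38.p6, 250 bases before to 50 after each start), as 41 windows. The entries of Atp6v0a2, Atp6v0d2, Atp6v1b2, Atp6v1c1, Atp6v1g1, Atp6v1h, Ctsb, Ctse, Ctsh and Ctsw were missing. The letters CACGTG, a palindrome that reads alike on both strands, stood in 9 of the 41 windows (22.0%), and in 7.15% of all 32851 windows. The longer palindrome TCACGTGA, which contains the first, stood in 5 of 41 (12.2%) and in 0.974% of all. Genes with CACGTG were Atp6v0b, Atp6v0d1, Atp6v0e, Atp6v1a, Ctsa, Ctsd, Ctsf, Ctsl and Lamp1, and those with TCACGTGA were Atp6v0d1, Atp6v0e, Atp6v1a, Ctsa and Ctsd. Shown here, with CACGTG in capitals, are the 250 bases before the start of Ctsd and of Lamp1, with 2 and 4 copies, of the V1 subunit Atp6v1a, with 1 copy, and of Ctsk, the cathepsin furthest from 1:1 in the AZD3965 and technique comparisons, with none. They lie at chr7:142387828-142388077 (minus strand), chr8:13158911-13159160 (plus strand), chr16:44139260-44139509 (minus strand) and chr3:95498960-95499209 (plus strand).
Ctsd: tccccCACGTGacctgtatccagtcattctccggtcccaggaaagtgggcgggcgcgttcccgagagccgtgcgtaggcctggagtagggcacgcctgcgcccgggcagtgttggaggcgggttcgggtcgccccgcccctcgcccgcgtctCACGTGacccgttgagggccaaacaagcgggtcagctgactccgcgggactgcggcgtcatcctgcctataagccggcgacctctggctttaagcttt
Lamp1: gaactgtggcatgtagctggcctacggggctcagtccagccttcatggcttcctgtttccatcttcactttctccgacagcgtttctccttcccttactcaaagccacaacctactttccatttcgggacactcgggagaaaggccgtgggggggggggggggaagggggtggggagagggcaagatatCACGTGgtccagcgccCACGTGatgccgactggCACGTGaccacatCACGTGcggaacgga
Atp6v1a: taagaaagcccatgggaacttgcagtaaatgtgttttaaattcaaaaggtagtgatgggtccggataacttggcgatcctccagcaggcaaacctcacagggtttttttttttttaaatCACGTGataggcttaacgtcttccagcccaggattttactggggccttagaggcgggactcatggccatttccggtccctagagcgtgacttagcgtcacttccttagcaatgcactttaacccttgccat
Ctsk: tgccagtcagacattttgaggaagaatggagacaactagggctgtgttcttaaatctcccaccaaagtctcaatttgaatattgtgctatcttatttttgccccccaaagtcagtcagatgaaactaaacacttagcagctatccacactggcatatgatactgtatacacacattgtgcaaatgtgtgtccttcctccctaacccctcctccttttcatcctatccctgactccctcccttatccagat

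Counts assigned to genes ranged from 269393 to 459859 per cell in the lactate experiment, from 58444 to 175450 in the AZD3965 experiment and from 494520 to 851417 in the technique comparison. Each cell had counts for 13 to 18 of the 18 macrophage markers, and a few also held transcripts of other cell types. In control cell CTL32, the macrophage markers summed to 1271 CPM and 13 of 14 fibroblast markers to 45148 CPM, against its label. Fibroblast markers summed to 9703 CPM in control cell CTL30, 7336 CPM in lactate cell Lactic29 and 17707 CPM in lactate+AZD cell W14, beside macrophage markers of 34958, 39898 and 25493 CPM, and W14 also had 2001 CPM of mesothelial markers. In these 4 cells the fibroblast markers reached at least 10% of the macrophage markers. In all other cells they stayed below that share, with the highest in lactate cell W5 of the AZD3965 experiment (6.90%). For the lactate and AZD3965 comparisons, the sums, medians and log2 ratios of named members are therefore given with and without these marker cells. Most other lysosomal genes named are given over all cells only. Their part in the results was not tested beyond that. B cell, T and NK cell, mast cell, neutrophil and dendritic cell markers each summed to at most 627 CPM in any cell. The B cell and dendritic cell markers were highest in lactate+AZD cell W10, at 247 and 387 CPM.

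Per length of transcript, 2 cathepsins stood above all other members in all 7 groups. Ctsd, an aspartic protease, reached 5259.6 CPM per kb of exon in lactate cells and 5869.9 in control cells of the lactate experiment. Ctss, a cysteine protease that trims the invariant chain for antigen presentation, followed with 3918 in lactate and 4452 in control cells. The cathepsins of the next highest levels were Ctsb (1045 and 1144) and Ctsz (1009 and 1172), both carboxypeptidases among the cysteine cathepsins, followed by Ctsl (316 and 315) and Ctsa (289 and 320.1), a serine carboxypeptidase that also protects other lysosomal enzymes. Lamp1 had 251 CPM per kb in lactate and 271 in control cells, and Lamp2 169.7 and 186. Among the V-ATPase genes, Atp6v0c, which encodes the proteolipid that repeats around the membrane ring, had the highest level per length in all 7 groups, with 1067 CPM per kb in lactate and 1343 in control cells. GENCODE lists pseudogenes of Atp6v0c, so its counts could be shared with near-identical copies. In the mm10 build the genes named most often lie as Ctsd at chr7:142375911-142388038, Ctss at chr3:95526786-95556403, Ctsk at chr3:95499256-95509362, Lamp1 at chr8:13159161-13175338, Atp6v0c at chr17:24163866-24169702 and Atp6v0d2 at chr4:19876841-19922605. Several members overlap other genes in the annotation, among them Ctsd, Ctss, Ctsb and Lamp1, and with no stated use of strand their reads cannot be told apart from those of the overlapping gene. The cathepsins took up 2.72% of all counts in lactate cells and 3.01% in control cells, and the 24 V-ATPase genes 0.480% and 0.553%.

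**Figure D1:**
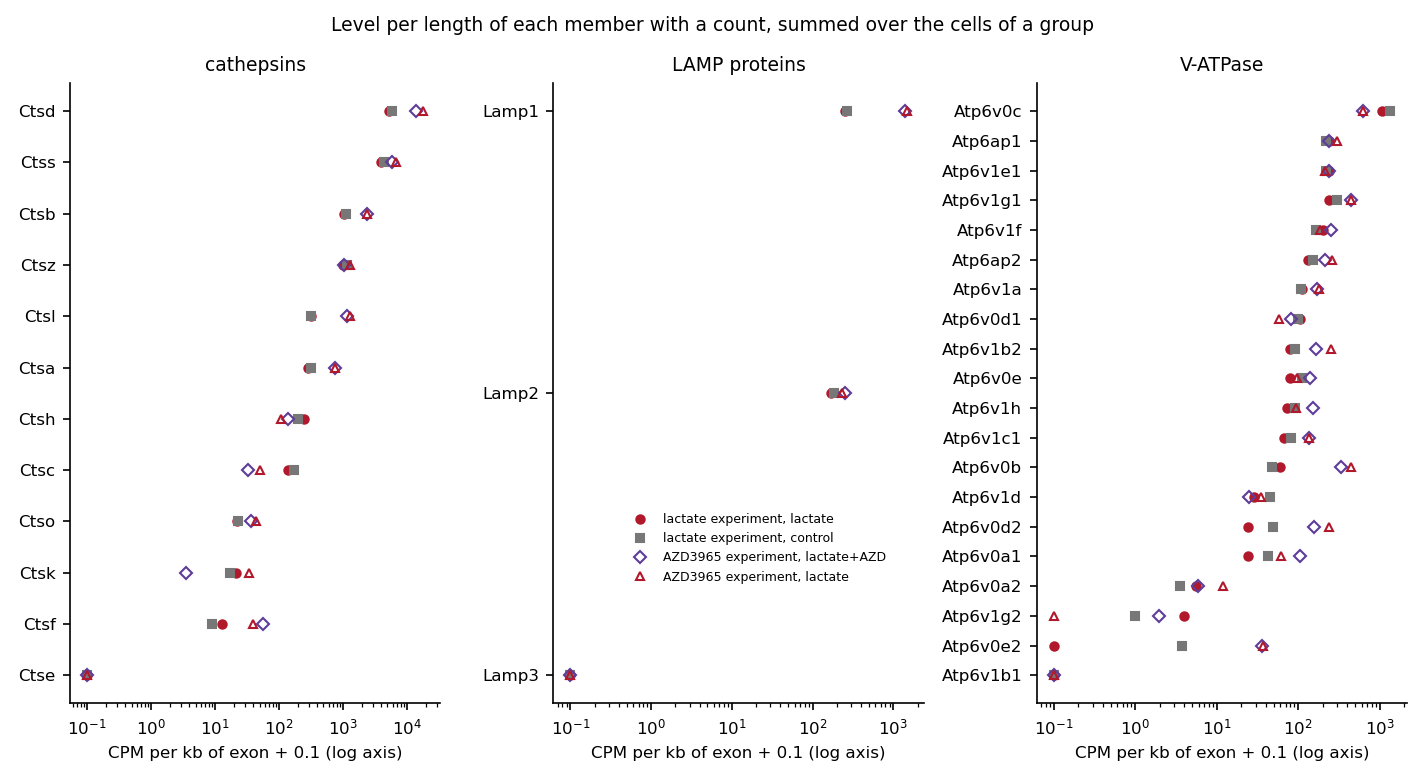
Level of each member with a count, in CPM per kb of exon plus 0.1 on a log axis, summed over the cells of each group of the lactate (filled) and AZD3965 (open) experiments. Ctsd and Ctss lead the cathepsins and Atp6v0c the V-ATPase genes in every group, while Ctse, Lamp3 and Atp6v1b1 sit at 0 in these 4 groups.

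The AZD3965 table was made separately, and its levels are given apart from those of the other tables. There Ctsd had 13727 CPM per kb in lactate+AZD cells and 18259 in lactate cells. Lamp1 had 1399 and 1470.3, and the V0 subunit Atp6v0b, of the same proteolipid family as Atp6v0c, 339 and 448. Atp6v0c itself had 632 and 621. In this table a count of 2 was also more frequent than a count of 1 (6215 and 1914 values), the opposite of the other tables.

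The lactate experiment asked how macrophages respond to lactate. All 3 gene groups were slightly lower in lactate cells, by far less than 2-fold. The cathepsins together came to 2.72% of counts in lactate cells and 3.01% in control cells, a log2 ratio of -0.15 (95% counting interval -0.16 to -0.13). The LAMP genes had 1414 CPM in lactate and 1541 CPM in control cells, a log2 ratio of -0.12 (95% counting interval -0.18 to -0.06), and the V-ATPase genes 4799 and 5534 CPM, a log2 ratio of -0.21 (95% counting interval -0.24 to -0.17). The median log2 ratio was -0.14 over the 32 members tested and -0.09 over all genes tested. Without the marker cells Lactic29, CTL30 and CTL32 it was -0.27 over the 32 members and 0.01 over all genes.

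The cells within each group differed far more than the groups. Summed cathepsins were 11913, 29028 and 47524 CPM (lowest, median and highest) in the 8 lactate cells and 5567, 32399.8 and 53631 CPM in the 8 control cells. LAMP sums were 930.5, 1416 and 1838 CPM in lactate and 728, 1447 and 2444 CPM in control cells. V-ATPase sums were 2681, 4767 and 6555 CPM in lactate and 2824, 5808 and 7512 CPM in control cells. The groups overlapped over most of their range in all 3 sums, and the marker cells Lactic29, CTL30 and CTL32 held the lowest places of their own groups in each. Without these 3 cells the log2 ratios were -0.34 for the cathepsins, -0.27 for the LAMP genes and -0.32 for V-ATPase, while the macrophage markers had 67451 CPM in lactate and 67829.6 CPM in control cells. Over all cells the macrophage markers had 63749.9 CPM in lactate and 55238 CPM in control cells, and the fibroblast markers 1258 and 7053 CPM. The cathepsin ratio also moved to 0.01 without control cell CTL34, the cell with the highest sum.

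**Figure D2:**
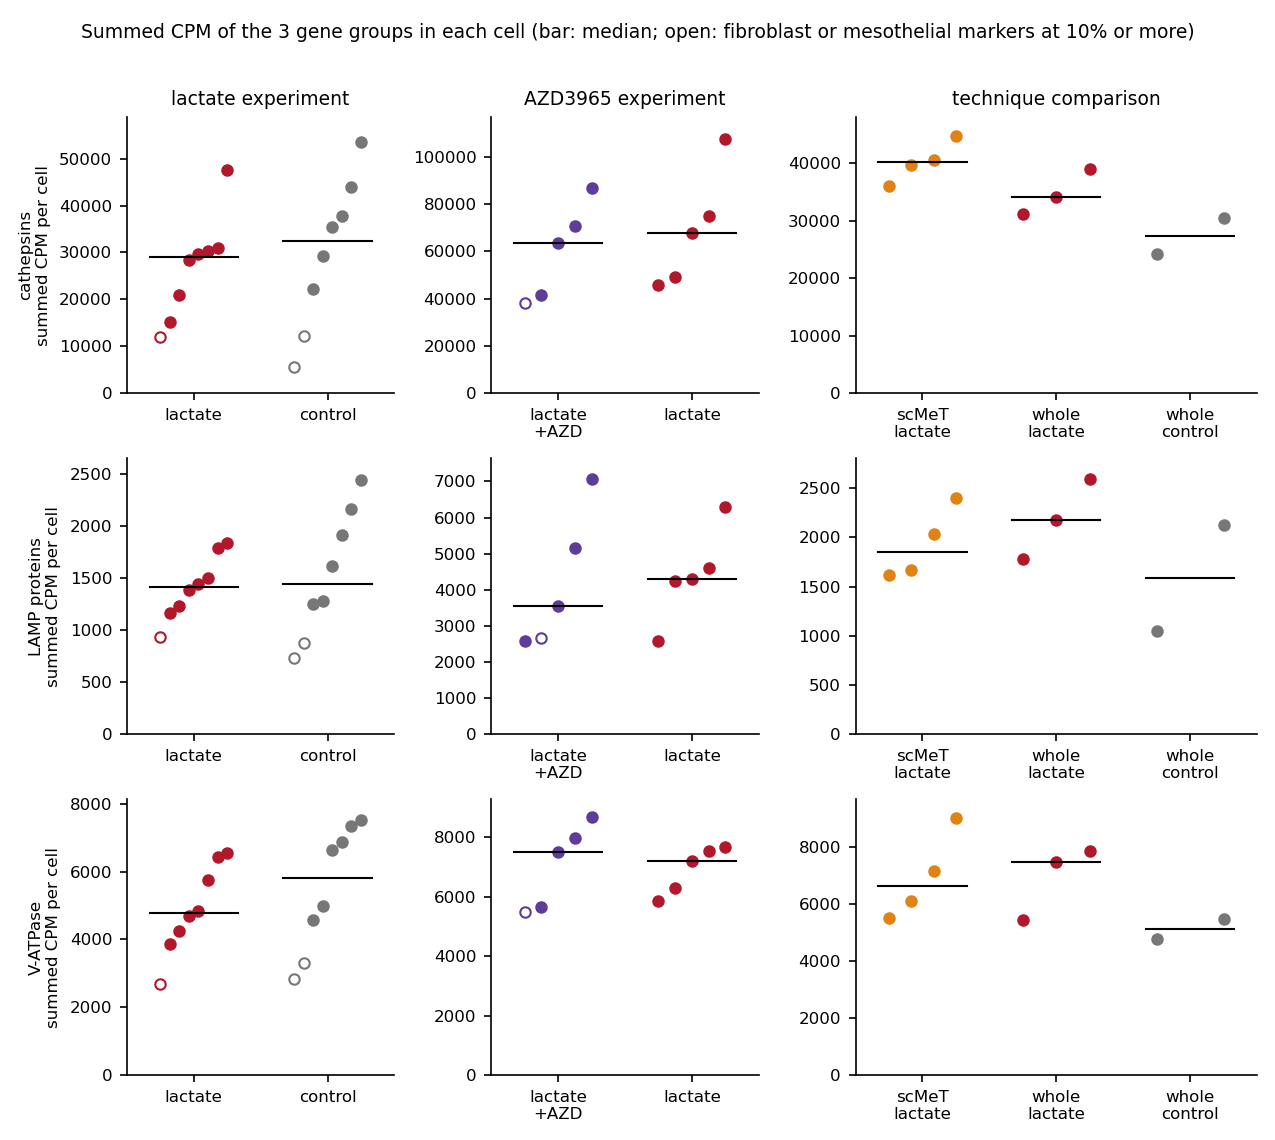
Summed CPM of the cathepsins, LAMP proteins and V-ATPase genes in each of the 35 cells, by group and experiment, with the median of each group as a bar and the 4 cells rich in fibroblast markers as open points. The 2 groups of the lactate experiment overlap in all 3 sums, with control cells CTL30 and CTL32 at the foot of their group.

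Of the 18 cathepsins, 11 passed the count filter, and none lay past 2-fold. Ctsd was 3896, 11867 and 22048 CPM in lactate cells and 2262, 11439.6 and 25739 CPM in control cells, with a log2 ratio of -0.16 (95% counting interval -0.18 to -0.14), and of -0.34 without the marker cells. Ctss was 2593, 4860.4 and 8787 CPM in lactate and 33.2, 6424 and 11437 CPM in control cells, with a log2 ratio of -0.18 (95% counting interval -0.21 to -0.15). Its lowest value, 33.2 CPM, was that of CTL32, and without the marker cells the ratio was -0.45. Ctsb and Ctsl had log2 ratios of -0.13 and 0.00, and -0.26 and -0.19 without the marker cells. In each of these genes the cells of the groups overlapped. Ctsf, a cysteine cathepsin of low level, had 78 counts in lactate and 52 in control cells, a log2 ratio of 0.54. CTL30 (78.4 CPM) and CTL32 (41.5 CPM) held most of the control counts, and without the marker cells Ctsf had 73 counts in lactate and 6 in control cells, a log2 ratio of 3.34 (95% counting interval 2.15 to 4.83). Ctsf was picked after its values were seen.

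CTL32 shows what the members look like in a cell with almost no macrophage RNA. Beside 33.2 CPM of Ctss, it had 2262 CPM of Ctsd, 1279 of Ctsb, 592 of Ctsl and 41.5 of Ctsh, each the lowest of the 8 control cells. Its Atp6v1h, the V1 subunit that bridges to the peripheral stalk, was the highest of the 8 at 304 CPM. Its cathepsin sum was 5567 CPM and its V-ATPase sum 2824 CPM. The ratio of these sums was 1.97, against 4.86 to 7.31 in the control cells without fibroblast markers at that share. A low ratio was not particular to CTL32. Lactate cell Lactic31 had a ratio of 2.35, with 56951 CPM of macrophage markers and fibroblast markers at 0.687% of them. The other lactate cells below that share ran from 5.15 to 7.29.

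Lamp1 and Lamp2 both passed the filter and lay within 2-fold. Lamp1 was 228, 577 and 791 CPM in lactate cells and 278, 546 and 1021 CPM in control cells, with a log2 ratio of -0.11 (95% counting interval -0.21 to -0.01), and of -0.26 without the marker cells. Lamp2 was 588, 894 and 1061 CPM in lactate and 450.0, 864 and 1528 CPM in control cells, with a log2 ratio of -0.13 (95% counting interval -0.21 to -0.05), and of -0.28 without the marker cells. The cells of the groups overlapped in both.

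Among the V-ATPase genes, 19 of 24 passed the filter. Across the 32 members of all 3 groups that passed, 1 lay at least 2-fold higher in lactate cells, beside 15.1% of all 11506 genes tested, and 2 at least 2-fold lower, beside 22.0%. All 3 were V-ATPase isoforms of low level. Atp6v0d2, the d subunit isoform of osteoclasts and some macrophages, was counted in 3 lactate cells (Lactic33 at 344 CPM, Lactic34 at 103 and Lactic32 at 2.17) and in 4 control cells (CTL33 at 378, CTL34 at 355, CTL31 at 179 and CTL35 at 46.1). It was at 0 in all others, and its log2 ratio of -1.03 (95% counting interval -1.29 to -0.77) ranged from -3.13 without Lactic33 to -0.40 without CTL33, and was -0.63 without CTL34. Atp6v0e2, an isoform of the small e subunit, had 0 counts in lactate cells and 19 in control cells, all in CTL31 and CTL33. With a floor of 3 counts over the lactate group it was 6.54-fold lower, and its 95% counting interval ended at a log2 ratio of -2.27. Without CTL31 the log2 ratio with this floor was -0.97, short of 2-fold. Atp6v1g2, the G subunit isoform known from brain, had 22 and 5 counts in lactate and control cells, a log2 ratio of 2.09 (95% counting interval 0.65 to 3.85). Lactic27 held most of them, and without it the ratio was -0.19. The counts of these 3 isoforms came from a few cells, and no member, nor any other gene tested (0.00%), separated the cells of the 2 groups without overlap.

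The abundant subunits lay within 2-fold. Atp6v0c was 651, 1369 and 1989.6 CPM in lactate and 346, 1850.4 and 2661 CPM in control cells, with a log2 ratio of -0.33 (95% counting interval -0.39 to -0.27), and of -0.51 without the marker cells. Atp6ap1, an accessory subunit needed for assembly, and Atp6v1a, the catalytic subunit that binds ATP, had log2 ratios of 0.15 and 0.03. Atp6v0e, the common e subunit, had -0.51. Without the marker cells these 3 were 0.21, -0.05 and -0.62. Atp6v0a1, one of the a subunits through which protons pass, came nearest to 2-fold among the rest. It was 0, 83.8 and 209 CPM in lactate and 0, 155 and 389 CPM in control cells, with a log2 ratio of -0.84, and of -1.05 without the marker cells. It too was picked after its values were seen. The other members tested lay between -0.68 for Atp6v1d and 0.69 for Atp6v0a2. Atp6v1d was -0.90 and Atp6v0a2 0.64 without the marker cells. Without the marker cells, 2 of 32 members lay at least 2-fold higher, beside 19.9% of all 10477 genes, and 3 at least 2-fold lower, beside 18.3%, with Ctsf and Atp6v0a1 added. Atp6v0d2 and Atp6v1g2 then had log2 ratios of -1.25 and 2.61, and Atp6v0e2 had -2.93 with a floor of 3 counts.

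**Figure D3:**
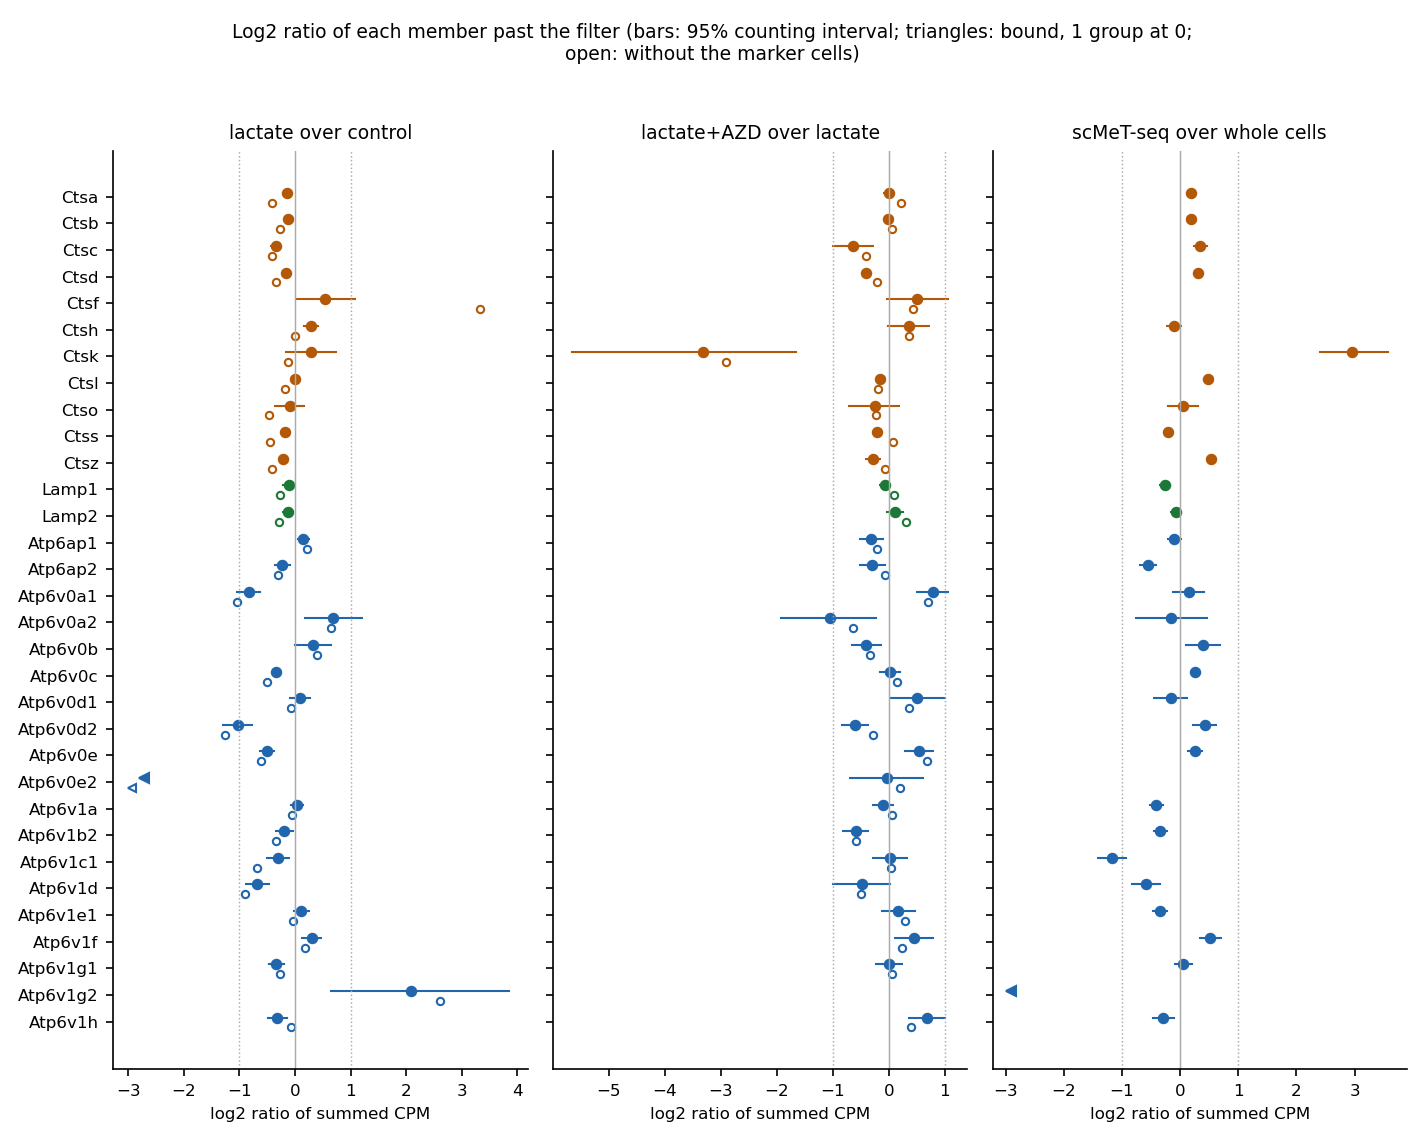
Log2 ratio of summed CPM for each member that passed the count filter, in the 3 comparisons, with 95% counting intervals. Dotted lines mark 2-fold, triangles mark ratios with a floor of 3 counts where 1 group had no count, and open symbols leave out the 4 marker cells. Most members lie between the dotted lines, and those outside are isoforms of low level, Ctsk, Ctsf and Atp6v1c1.

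Most other lysosomal genes lay within 2-fold, as did 62.8% of all genes. The counts of the lists are to be read beside the 15.1% of all genes that were at least 2-fold higher and the 22.0% that were at least 2-fold lower. Of 33 lysosomal hydrolases tested, 1 lay at least 2-fold higher and 4 at least 2-fold lower in lactate cells. Psap, the precursor of the saposins, had 2798 against 2860.0 CPM, a log2 ratio of -0.03, and Grn, the progranulin precursor, had 1329 against 1602 CPM, a log2 ratio of -0.27. The carboxypeptidase Cpq had the largest ratio among hydrolases with at least 50 counts (-1.56). Of 21 other lysosomal membrane proteins, 3 were higher and 1 lower past 2-fold. The lower one was Gpnmb, a glycoprotein of phagocytes, which had 1837 against 5809 CPM, a log2 ratio of -1.66. Its cells spanned 86.8, 758 and 7342 CPM in lactate and 63.7, 2258 and 13260.2 CPM in control cells, so the groups overlapped. Laptm5 had a log2 ratio of -0.05 and the lysosomal channel gene Tpcn1 2.19. Among 19 regulators of the lysosome, 2 were higher and 0 lower. Those 2 were Tfeb, which had 62.2 against 15.3 CPM, a log2 ratio of 2.02, and Ppp3cb, a catalytic subunit of the phosphatase calcineurin, with 1.55. Mitf had 499 against 312 CPM, a log2 ratio of 0.68, and Lamtor3 -0.52.

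Of 5 cathepsin inhibitors, 0 were higher and 2 lower past 2-fold. The cystatins Cst3 and Cstb had log2 ratios of 0.14 and -0.48, and Serpinb6a -0.64. Of 11 genes that sort hydrolases to the lysosome, 0 were higher and 1 lower. The mannose-6-phosphate receptor M6pr had a ratio of 0.35, Scarb2 0.07, Gnptg -1.18 and Sort1 0.89. Of 12 further V-ATPase genes, 0 were higher and 1 lower. Tcirg1, the a3 subunit, had 244 against 161 CPM, a log2 ratio of 0.60, and Snx10 0.38. Oxr1 and Dmxl2 had ratios of -1.31 and 0.84. The median log2 ratios were -0.03 for the hydrolases, 0.00 for the other membrane proteins, -0.12 for the regulators, -0.64 for the inhibitors, -0.12 for the sorting genes and 0.33 for the further V-ATPase genes, beside -0.09 over all genes. Without the marker cells, the medians in the same order were -0.17, 0.01, -0.15, -0.87, 0.07 and 0.14, beside 0.01 over all genes. Past 2-fold without these cells, 1 hydrolase was higher and 3 lower, and 3 other membrane proteins were higher and 2 lower. Regulators had 3 higher and 1 lower, inhibitors 0 and 2, sorting genes 0 and 0, and further V-ATPase genes 1 and 2. These counts are to be read beside 19.9% of all genes higher and 18.3% lower. Without these cells Psap had a log2 ratio of -0.28, Grn -0.45, Laptm5 -0.31, Tpcn1 3.43, Mitf 0.39 and Lamtor3 -0.78.

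The AZD3965 experiment asked what blocking MCT1 did under lactate. Cathepsins were slightly lower in lactate+AZD cells, while LAMP and V-ATPase genes lay near 1:1. The cathepsins took up 6.05% of the total in lactate+AZD cells, against 7.28% in lactate cells, a log2 ratio of -0.27 (95% counting interval -0.29 to -0.25). LAMP genes had 4389 and 4461 CPM, a log2 ratio of -0.02 (95% counting interval -0.10 to 0.05), and V-ATPase genes 6722 and 7019.6 CPM, a log2 ratio of -0.06 (95% counting interval -0.12 to 0.00). The median log2 ratio was -0.07 over the 31 members tested and 0.17 over all genes tested. Without the marker cell W14 it was 0.06 over the members and 0.04 over all genes. TMM scaling shifted every log2 ratio of this comparison by -0.16.

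The cathepsin sums were 63402, 70645, 38236, 41304 and 86647 CPM in the lactate+AZD cells T10, W10, W14, F8 and F9, and 74987, 107649, 49159, 67587 and 45635 CPM in the lactate cells T11, T13, W5, W20 and F18. The groups overlapped, with the highest sum in T13 and the lowest in the marker cell W14. Without W14 the cathepsin ratio was -0.10, and without T13 it was -0.02. LAMP sums were 3562, 7056, 2659, 2567 and 5145 CPM in lactate+AZD cells and 4612, 6292, 4294, 2591 and 4242 CPM in lactate cells, again with overlap. V-ATPase sums were 7492, 5634, 5495, 8675 and 7978 CPM in lactate+AZD cells and 7678, 7541, 5838, 7192 and 6286 CPM in lactate cells. Without W14 their log2 ratios were 0.15 and 0.02. Macrophage markers summed to 47569.5 CPM in lactate+AZD cells, against 72752 CPM in lactate cells, and to 54667 CPM in lactate+AZD cells without W14.

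Of the 31 members that passed the filter, 0 lay at least 2-fold higher in lactate+AZD cells, beside 24.9% of all 8764 genes tested, and 2 at least 2-fold lower, beside 15.6%. Ctsk, the collagen-degrading cathepsin known from osteoclasts, was counted in T10 alone among the lactate+AZD cells (21.2 CPM), and in T13, W20 and F18 among the lactate cells (125, 43.2 and 88.4 CPM). With 3 and 37 counts, its log2 ratio was -3.31 (95% counting interval -5.66 to -1.66), and -2.91 without W14. The V0 subunit isoform Atp6v0a2 was counted in T10 (99.1 CPM) and W10 (26.7 CPM) of the lactate+AZD cells, and in T13, W20, F18 and T11 (119.7, 105, 44.2 and 25.1 CPM) of the lactate cells. Its log2 ratio was -1.04 (95% counting interval -1.92 to -0.23), and ranged from -2.81 without T10 to -0.57 without T13, with -0.64 without W14. Leaving out W14, F8, F9, T13 or W20 left 1 member past 2-fold. Without W14, 0 of 31 members were at least 2-fold higher, beside 20.5% of all 8153 genes, and 1 at least 2-fold lower, beside 21.6%. Both genes had few counts, and the groups overlapped at 0. No member separated the cells of the groups, beside 0.377% of all genes.

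The abundant members lay within 2-fold. Ctsd was 29701, 37419, 15954, 8145 and 49127 CPM in lactate+AZD cells and 43069.6, 59208, 25726, 34271 and 19420.5 CPM in lactate cells, a log2 ratio of -0.41 (95% counting interval -0.44 to -0.38). F8 was the lowest cell and T13 the highest. The ratio was -0.14 without T13 and -0.22 without W14. Ctsb, Ctsl and Ctss had log2 ratios of -0.01, -0.16 and -0.22, and without W14 Ctsb and Ctsl had 0.06 and -0.18. Ctss ran from 9386 to 10711 CPM in 4 lactate+AZD cells and stood at 2567 CPM in W14, against 7621 to 11066 CPM in lactate cells, and its ratio was 0.07 without W14. Lamp1 and Lamp2 had log2 ratios of -0.07 and 0.10, and of 0.09 and 0.31 without W14. Of the V-ATPase genes, Atp6v0c, Atp6v1a, Atp6v1b2 (the B subunit of the catalytic ring) and Atp6ap1 had log2 ratios of 0.03, -0.10, -0.59 and -0.31, and of 0.15, 0.06, -0.58 and -0.21 without W14. The other members tested lay between -0.63 for Ctsc and 0.78 for Atp6v0a1. Ctsc was -0.41 and Atp6v0a1 0.70 without W14.

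The wider lists are to be read beside the 24.9% of all genes at least 2-fold higher and the 15.6% at least 2-fold lower. Among them, 3 of 33 hydrolases lay at least 2-fold higher and 2 at least 2-fold lower in lactate+AZD cells. Psap had 6557 against 9238 CPM, a log2 ratio of -0.49, and Lipa, the acid lipase, -0.14. The largest ratios among hydrolases with at least 50 counts were those of Manba (-2.64), a mannosidase, and the acid sphingomyelinase Smpd1, with 94.6 CPM under lactate+AZD, against 23.6 CPM under lactate. Of 20 other membrane proteins, 2 were higher and 2 lower. Cd68 and Cd63 had log2 ratios of -0.14 and 0.13, and Ctns, the cystine exporter, and Laptm4b had -2.30 and 2.08. Of 18 regulators, 5 were higher and 3 lower, among them Mtor (2.05) and Tfe3 (-1.93). Lamtor1 had -0.17 and Mitf -0.04. The inhibitors had 1 of 5 higher and 0 lower, with Cst3 at -0.15, Cstb at 0.11, Serpinb1a at -0.78 and Serpinb6a at 0.21. The sorting genes had 1 of 10 higher and 2 lower, with M6pr at 0.06, Scarb2 at 0.54, Gnptab at 4.42 and Sort1 at -1.59. Of 13 further V-ATPase genes, 1 was higher and 2 lower, with Tcirg1 at -0.33, Rnasek at 0.31, Ccdc115 at -1.25 and Dmxl2 at -0.69. The median log2 ratios were -0.06 for the hydrolases, 0.12 for the other membrane proteins, 0.04 for the regulators, 0.11 for the inhibitors, -0.32 for the sorting genes and -0.18 for the further V-ATPase genes, beside 0.17 over all genes. Without W14, the medians in the same order were -0.10, 0.09, 0.11, 0.11, -0.07 and -0.02, beside 0.04 over all genes. Past 2-fold without W14, 2 of 33 hydrolases were higher and 4 lower, and 1 of 20 other membrane proteins was higher and 2 lower. Regulators had 5 of 18 higher and 3 lower, inhibitors 0 of 4 and 0, and sorting genes 1 of 10 and 2. Further V-ATPase genes had 0 of 12 higher and 3 lower. These counts are to be read beside 20.5% of all genes higher and 21.6% lower. Without W14, Smpd1 had a log2 ratio of 1.21, Manba -3.24 and Lipa 0.07.

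The technique comparison asked whether drawing cytoplasm from a cell changed its RNA profile. Cathepsins were slightly higher in scMeT-seq cells than in whole cells, and LAMP genes slightly lower. The cathepsins took up 4.01% of the total in scMeT-seq cells, against 3.49% in whole cells, a log2 ratio of 0.20 (95% counting interval 0.19 to 0.22). LAMP genes had 1952 and 2187 CPM, a log2 ratio of -0.16 (95% counting interval -0.23 to -0.10), and V-ATPase genes 6829 and 7040.1 CPM, a log2 ratio of -0.04 (95% counting interval -0.08 to -0.01). The median log2 ratio was -0.01 over the 30 members tested and 0.02 over all genes tested. In single cells, cathepsin sums were 40657, 44709.9, 35987 and 39772 CPM in scMeT-seq cells and 34142, 31166 and 38970.0 CPM in lactate-treated whole cells, and the highest whole cell lay above the lowest scMeT-seq cell. V-ATPase sums were 5495, 9011, 7164 and 6112 CPM in scMeT-seq cells and 5452, 7853 and 7493 CPM in whole cells. LAMP sums were 2030.4, 1668, 1614 and 2396 CPM in scMeT-seq cells and 2172, 1776 and 2594 CPM in whole cells. The cells of the 2 techniques overlapped in all 3 sums.

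Of the 30 members that passed the filter, 1 lay at least 2-fold higher in scMeT-seq cells, beside 21.7% of all 9723 genes tested, and 2 at least 2-fold lower, beside 20.6%. The higher one was Ctsk, with 402, 78.9, 0 and 13.3 CPM in the scMeT-seq cells Lactic13, Lactic14, Lactic16 and Lactic17, against 0, 17.95 and 26.7 CPM in the whole cells Lactic5, Lactic6 and Lactic7. Its log2 ratio of 2.96 (95% counting interval 2.40 to 3.58) was 0.79 without Lactic13. Atp6v1c1, the C subunit that holds V1 to V0, was 67.5, 196, 36.4 and 97.3 CPM in scMeT-seq and 56.6, 308 and 249 CPM in whole cells, a log2 ratio of -1.17 (95% counting interval -1.41 to -0.93). The groups overlapped, and the ratio was -0.79 without Lactic6 and -0.90 without Lactic16. Atp6v1g2 was at 0 in the scMeT-seq cells, against 16 counts in whole cells, all in Lactic5. With a floor of 3 counts it was 7.47-fold lower, and its 95% counting interval ended at a log2 ratio of -2.43. Ctsz was the only member whose cells did not overlap, beside 4.77% of all genes: 2164, 3752, 3763 and 2275 CPM in scMeT-seq cells against 2083, 1893 and 2091 CPM in whole cells, a log2 ratio of 0.54 (95% counting interval 0.48 to 0.60). Ctsd, Ctsb, Ctsl and Ctss had log2 ratios of 0.31, 0.18, 0.47 and -0.20, and Lamp1 and Lamp2 -0.26 and -0.07. The abundant V-ATPase genes Atp6v0c, Atp6v1a, Atp6v1b2 and Atp6ap1 had 0.26, -0.41, -0.34 and -0.10. The other members tested lay between -0.59 for Atp6v1d and 0.52 for Atp6v1f.

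The wider lists are to be read beside the 21.7% of all genes at least 2-fold higher and the 20.6% at least 2-fold lower. In them, 4 of 33 hydrolases were higher and 1 lower past 2-fold in scMeT-seq cells, with Psap at a log2 ratio of 0.49, Lipa at -0.49, Smpd1 at 3.10 and Prcp at -2.36. Other membrane proteins had 2 of 21 higher and 0 lower. Gpnmb was 19573, 5677, 3045 and 5387 CPM in scMeT-seq cells and 588, 4699 and 4016 CPM in whole cells, a log2 ratio of 1.38. Cd68 had 0.24 and Mcoln1, a calcium channel of the lysosome, 2.56. Further V-ATPase genes had 4 of 12 higher and 1 lower, with Tcirg1 at -0.50, Snx10 at -0.12, Tmem199 at -4.16 and Oxr1 at 2.51. Inhibitors had 1 of 5 higher and 1 lower, sorting genes 1 of 11 and 3, and regulators 0 of 19 and 2. Cst3 and Cstb had 0.20 and 0.02. Serpinb1a had 62 counts across the scMeT-seq group, against 0 in the whole-cell group, and was 14.8-fold higher with a floor of 3 counts. M6pr, Sort1, Gnptg and Gga2 had -0.87, 0.78, 2.84 and -1.84, and Mitf, Lamtor1, Rraga and Rragc 0.42, -0.11, -4.89 and -0.90. The median log2 ratios were 0.18 for the hydrolases, 0.17 for the other membrane proteins, -0.04 for the regulators, 0.02 for the inhibitors, -0.44 for the sorting genes and 0.59 for the further V-ATPase genes, beside 0.02 over all genes.

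The same table holds 2 whole control cells, which allow a small second look at lactate. These values share the 3 whole lactate cells with the technique comparison. Here all 3 sums were higher in lactate cells, with log2 ratios of 0.31 for the cathepsins, 0.36 for the LAMP genes and 0.44 for V-ATPase. In the lactate experiment they were -0.15, -0.12 and -0.21. The median log2 ratio was 0.35 over the 31 members tested and -0.20 over all genes, and TMM scaling shifted the ratios by 0.19. The sums of the control cells CTL4 and CTL8 were 30509 and 24274 CPM of cathepsins, 2129 and 1048 CPM of LAMP and 5474 and 4777 CPM of V-ATPase genes. In the cathepsin sum both of these cells lay below all 3 lactate cells, and in the LAMP and V-ATPase sums only CTL8 did. Of 31 members tested, 5 lay at least 2-fold higher in lactate cells, beside 15.2% of all 9732 genes, and 1 at least 2-fold lower, beside 27.6%. Higher were Atp6v0d2, Ctsk, Atp6v1h (1.07), Atp6v0a2 (1.04) and Atp6v1g2, which was 4.32-fold higher with a floor of 3 counts. Atp6v0d2 had 332 counts in lactate and 1 in control cells, a log2 ratio of 8.07 (95% counting interval 5.58 to 13.38). Its counts in lactate cells came from Lactic6 (211) and Lactic7 (121), while Lactic5 was at 0, so the groups overlapped. In the lactate experiment its log2 ratio was -1.03. Ctsk had 28 and 3 counts, a log2 ratio of 2.92 (95% counting interval 1.22 to 5.28). Lower was Ctsf, with 0 and 10 counts, 4.11-fold with the same floor. Without CTL4, Atp6v0d2 was at 5.15, Atp6v1h at 0.80 and Atp6v0a2 at 2.21 on the log2 scale. The cells did not overlap in Ctsd, Atp6v1a and Atp6v1h, which were higher, and in Ctsc, which was lower (log2 ratio -0.93). These were 4 of 31 members, beside 21.4% of all genes. Ctsd, Ctsb, Ctss and Ctsl had log2 ratios of 0.46, 0.25, 0.44 and 0.23, Lamp1 and Lamp2 0.35 and 0.38, and Atp6v0c, Atp6v1a, Atp6ap1 and Atp6v1e1 0.54, 0.39, 0.14 and 0.35.

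V-ATPase is built from subunits that several genes can supply, and the macrophages used a narrow set. For the B, C and E subunits, Atp6v1b2, Atp6v1c1 and Atp6v1e1 supplied at least 99.8% of the CPM per kb in all 7 groups, and for the G subunit Atp6v1g1 supplied at least 98.4%. The renal and epithelial isoforms Atp6v0a4, Atp6v1c2 and Atp6v1g3 were at 0, and Atp6v1b1 was counted in 2 cells only. For the a subunit, 2 genes shared most of the level: Tcirg1, which lies outside the name rule, supplied 71.5% in lactate and 51.4% in control cells of the lactate experiment, and Atp6v0a1 23.1% and 44.9%. In the AZD3965 experiment Tcirg1 supplied 41.3% in lactate+AZD and 57.2% in lactate cells, and Atp6v0a1 55.7% and 35.9%. The d subunit varied most. Atp6v0d2 supplied 18.5% of it in lactate and 33.1% in control cells of the lactate experiment, 65.6% in lactate+AZD and 80.5% in lactate cells of the AZD3965 experiment, and 63.0% in scMeT-seq, 53.1% in whole lactate and 0.420% in whole control cells of the technique comparison. The common isoform Atp6v0d1 supplied the rest. The 0.420% rested on 1 count of Atp6v0d2, in CTL4, and the lactate-treated cells Lactic5 and Lactic16 of that comparison were at 0. The e subunit isoform Atp6v0e2 supplied 20.5% and 27.7% in the AZD3965 experiment and at most 3.12% elsewhere.

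**Figure D4:**
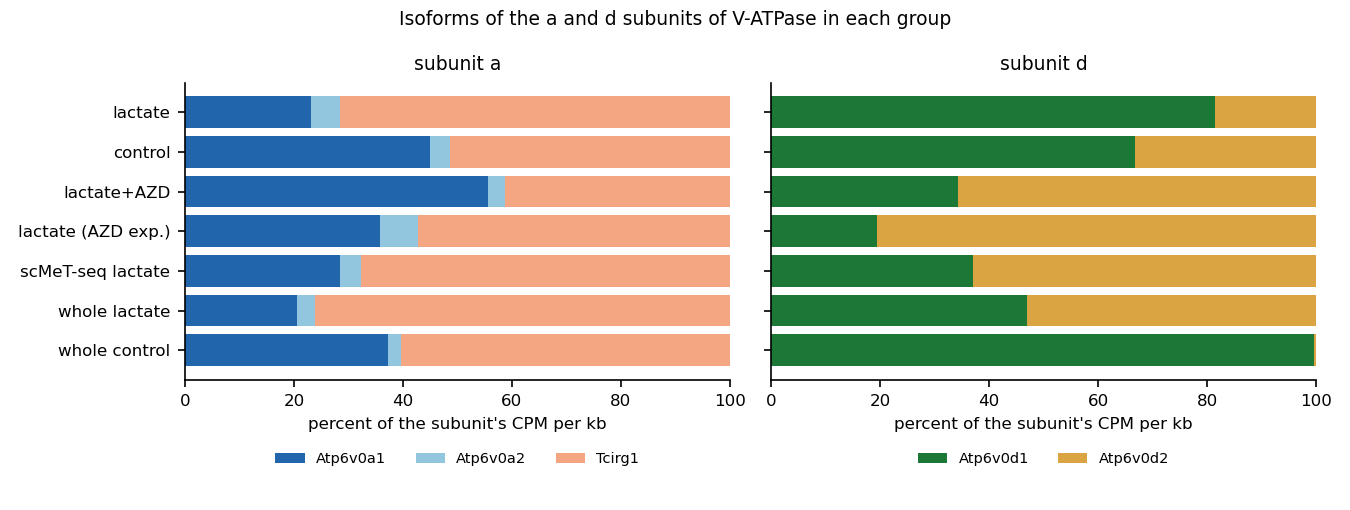
Share of each isoform in the summed CPM per kb of the a subunit (left) and the d subunit (right) of V-ATPase, in the 7 groups of cells. Tcirg1 and Atp6v0a1 make up most of the a subunit in every group, while the share of Atp6v0d2 runs from 0.420% in whole control cells to 80.5% in lactate cells of the AZD3965 experiment. The 0.420% rests on 1 count of Atp6v0d2, in CTL4.

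Atp6v0d2 and Ctsk, both known from osteoclasts, were counted in some cells and at 0 in others of the same group. In the technique comparison, 6 of 9 cells had counts of Atp6v0d2 and the same 6 had counts of Ctsk. Among these, whole control cell CTL4 had only 1 count of Atp6v0d2 and 3 of Ctsk. In the lactate experiment each was counted in 7 of 16 cells, and 6 cells had both. Those were 3 of the 8 lactate cells and 3 of the 8 control cells, and Lactic32 was among them with only 1 count of Atp6v0d2. The cell with Ctsk alone was the marker cell Lactic29 (29.4 CPM), and the cell with Atp6v0d2 alone was CTL34 (355 CPM). In the AZD3965 experiment all 10 cells had Atp6v0d2 counts, from 91.9 CPM in W14 to 820.4 CPM in W20, and 4 of them had Ctsk. Where both were counted, the levels differed in order: Lactic33 had 344 CPM of Atp6v0d2 and 32.6 of Ctsk, and Lactic34 had 103 and 158. This pair was picked after its values were seen.

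**Figure D5:**
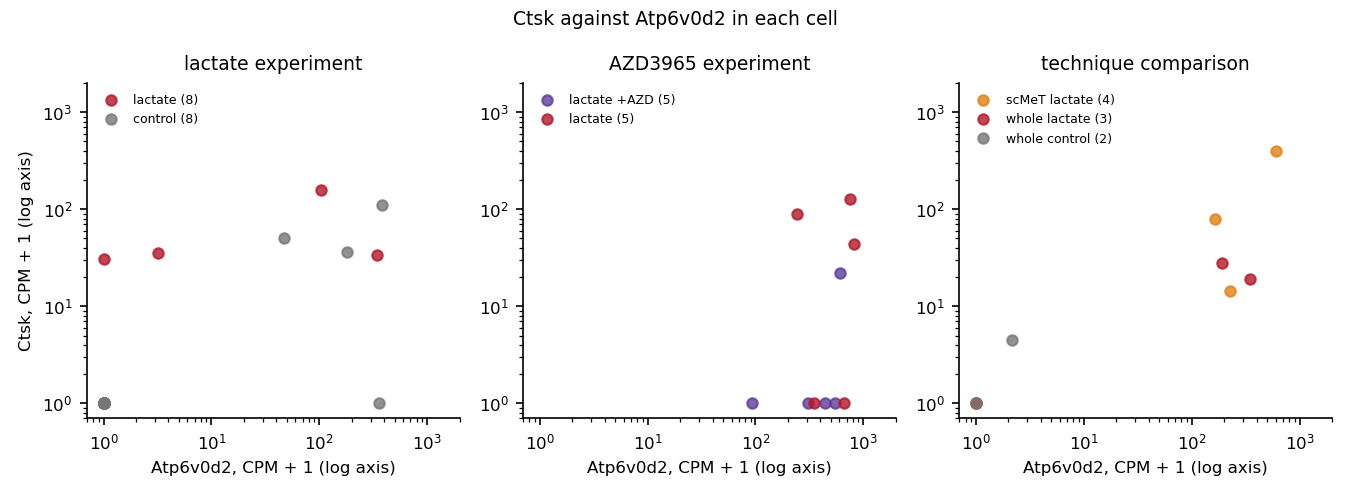
Ctsk against Atp6v0d2 in each cell, in CPM plus 1 on log axes, for the 3 experiments, colored by group. In the technique comparison the same 6 of 9 cells have counts of both, and in the lactate experiment 6 of 16 cells do, with cells of both groups among them. In CTL4 and Lactic32 the count of Atp6v0d2 is 1.

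Across cells, the 3 gene groups went together in the lactate experiment and less evenly elsewhere. Over its 16 cells, Spearman's rho was 0.84 between the sums of cathepsins and V-ATPase genes, 0.83 between cathepsins and LAMP genes and 0.79 between LAMP and V-ATPase genes. Over the 13 cells without the marker cells the values were 0.70, 0.69 and 0.64. Over the 10 cells of the AZD3965 experiment they were 0.38, 0.75 and -0.08, and over its 9 cells without W14 0.15, 0.75 and -0.27. Over the 9 cells of the technique comparison they were 0.57, 0.25 and 0.03. These are descriptions across cells of the same experiments and tables, and the sums of a cell are fractions of 1 total count. In the lactate experiment the cathepsin sum had a rho of 0.68 with the macrophage markers and -0.73 with the fibroblast markers, and of 0.41 and -0.51 over the 13 cells. These were 0.31 and -0.41 in the AZD3965 experiment, 0.05 and -0.18 without W14, and 0.07 and -0.45 in the technique comparison. The part of these markers in the relations between the gene groups was not tested. The cathepsin sum and the total count per cell had a rho of 0.11 in the lactate experiment, 0.49 in the AZD3965 experiment and 0.02 in the technique comparison.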

How the data were processed

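Each cell was a Smart-seq2 type library without molecular identifiers. Per the series text, reads were trimmed with fastp 0.20.0, aligned to mm10 with HISAT2 2.1.0 and counted per gene with StringTie, and the authors deposited the resulting counts per gene and cell in 3 tables made separately. The gene annotation and the use of strand are not given in the sources used here. No sample column was left out (0 unused). Members and lists were chosen with earlier results of these data known.

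Counts were added up over the cells of a group and scaled to 1000000 (CPM). Log2 ratios have exact conditional binomial 95% intervals, which cover counting error only. Genes with at least 10 counts over both groups were tested against a 2-fold threshold. A count of 0 was replaced by a floor of 3 counts, and fold values with this floor leave out the counting error of the other group. The calculation was tested on simulated counts with counting error only, without variation between cells or PCR copies. Levels per kb used the exon union of GENCODE M21. Named were all members past 2-fold and the 4 of highest CPM in each gene group, and for other lysosomal lists the 2 of highest CPM and up to 2 of the largest ratio with at least 50 counts, of which 1 is not reported here. Alternatives were the mean of per-cell CPM, TMM (edgeR 4.0.16), count filters of 50 and none, leaving out each cell, pairs of equal cell number, and, for all comparisons they apply to, cells without fibroblast or mesothelial markers. Scripts ran in Python 3.11.15 with pandas 2.3.3 and scipy 1.17.1.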

Additional observations from a re-analysis of the deposited data

Results flagged for a closer look

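Single cells stood far from the rest of their group in 14 of 110 checks with Dixon's test at the 95% level. Each check took 1 gene or sum in 1 group of cells, so the same cells enter many checks. For normally distributed values chance flags about 1 in 20, but in 10 of the 14 the other cells reached down to 0, where that rate does not apply, and where all other cells were at 0, as for Ctsk and Atp6v1g2 in lactate+AZD cells, any count is flagged. In lactate cells of the lactate experiment these were Atp6v0a2 at 97.7 CPM and Atp6v0d2 at 344 CPM in Lactic33, Atp6v1g2 at 50.4 CPM in Lactic27 and Ctsk at 158 CPM in Lactic34. In control cells they were Atp6v0a2 at 79.9 CPM in CTL35, Atp6v0e2 at 38.5 CPM in CTL31 and Ctsk at 110.0 CPM in CTL33. In lactate+AZD cells they were Atp6v0a2 at 99.1 CPM and Ctsk at 21.25 CPM in T10, and Atp6v1g2 at 14.1 CPM in W14.

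Abundant members gave the other 4. Ctss was at 2567 CPM in the lactate+AZD cell W14, against 9386 to 10711 CPM in the other 4, and W14 was the cell with fibroblast and mesothelial markers. In scMeT-seq cells of the technique comparison, Ctss was at 8827 CPM in Lactic17, and Atp6v1a at 879 CPM and Lamp1 at 1014 CPM in Lactic14.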

How the results depend on the processing

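Values here are log2 ratios of summed CPM unless called counts. For lactate over control, TMM scaling gave -0.068 for cathepsins, -0.043 for LAMP and -0.12 for V-ATPase genes, and the mean of per-cell CPM gave -0.17 for V-ATPase. Without the marker cells they were -0.34, -0.27 and -0.32. With the replicate block, over the 7 pairs of equal cell number, they were 0.13, 0.018 and -0.053. The cathepsin ratio was 1.28 and 1.92 in the pairs with the marker cells CTL30 and CTL32. In the other pairs it ran from -0.96 to 0.11. The cell numbers only name cells and pair nothing in the labels. Members past 2-fold numbered 1 with a filter of 50 counts and 5 without the marker cells, against 3. For lactate+AZD over lactate, the mean of per-cell CPM gave -0.20 for cathepsins and 0.031 for V-ATPase, TMM gave -0.43, -0.19 and -0.23, and leaving out W14 gave -0.10, 0.15 and 0.020 in the same order. Members past 2-fold numbered 1 with a filter of 50 counts and 1 without W14, against 2. For scMeT-seq over whole cells, using all 5 whole cells gave 0.34, -0.012 and 0.14, the mean of per-cell CPM gave 0.0028 for V-ATPase, and no filter gave 6 members past 2-fold, against 3. No marker cell was among them to leave out. For whole-cell lactate over control, the mean of per-cell CPM gave 0.34 for cathepsins and 0.46 for LAMP, TMM gave 0.50, 0.55 and 0.63, and a filter of 50 counts gave 3 members, against 6.

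Leaving out 1 cell at a time, the cathepsin ratio ran from -0.34 to 0.0065 for lactate over control, from -0.39 to -0.025 for lactate+AZD over lactate, from 0.12 to 0.30 for scMeT-seq over whole cells and from 0.19 to 0.52 for whole-cell lactate over control. LAMP ran from -0.24 to 0.037, -0.37 to 0.18, -0.30 to -0.00059 and 0.038 to 1.06, and V-ATPase from -0.30 to -0.11, -0.12 to 0.020, -0.17 to 0.052 and 0.34 to 0.56. Members past 2-fold ran from 1 (without Lactic27 or CTL31) to 5 (without Lactic33), 1 to 3, 2 to 4 and 5 to 6. Atp6v1g2 for lactate over control ran from -0.19 without Lactic27 to 3.24 without CTL35. The cause of these shifts was not tested. Counts of members without the marker cells, those with all 5 whole cells and all alternatives for whole-cell lactate over control were chosen after seeing the data.

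Each group is 1 sample, so that variation between cultures or mice could not be measured. Counts without molecular identifiers include PCR copies, and members of low count depend on 1 or 2 cells. Cells of the AZD3965 experiment had the fewest counts, and a 0 there allows the highest level.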
